A study of Bos taurus with 40 samples.

Results

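The transcripts described here are those of 5 adenylate kinases (AK1, AK3, AK4, AK5 and AK7) and 4 creatine kinases (CKM, CKB, CKMT1B and CKMT2) in 4 tissues of cattle. They were chosen by gene family with their levels over tissues and sexes already known, and with the sex difference of AK4 in liver among the known results. Their tissue levels and AK4 in liver are therefore given as descriptions with no test. All 9 genes were found among the 13148 genes with at least 1 read, out of 13570 genes listed. The study sequenced RNA from the pituitary gland, liver, longissimus dorsi muscle and abdominal fat of 10 Korean cattle. Of these, 5 were cows and 5 were bulls, and each animal gave 1 library of each tissue. The animals were slaughtered at over 22 months of age with a carcass weight of 353 ± 36 kg, and the labels name no treatment or genotype. Replicates of a group are labelled as separate animals, so the spread given here is that between animals. The comparison of cows with bulls within each tissue asked which genes are sexually dimorphic, and the 4 tissues of 1 animal share their donor.

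Adenylate kinases interconvert ATP, ADP and AMP, while creatine kinases move phosphate between ATP and creatine. Together they keep ATP supplied where it is used quickly, and AMP made by adenylate kinase is the signal read by the kinase AMPK. The enzymes are divided by compartment and tissue. AK1, CKM and CKB are cytosolic, AK3 and AK4 lie in the mitochondrial matrix, CKMT1B and CKMT2 lie between the mitochondrial membranes, AK5 is known from brain, and AK7 is known from motile cilia. Skeletal muscle is the tissue best known for CKM, CKMT2 and AK1.

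The libraries held between 5173092 and 19165864 reads in genes, with a median of 10005607. Markers of each labelled tissue were present in every library of it. The sum of 5 liver markers was at least 113338 TMM-scaled CPM in liver and at most 473 elsewhere, and that of 4 muscle markers was at least 76403 in muscle and at most 127 elsewhere. The sum of 4 fat markers was at least 5448 in fat and at most 663 elsewhere, and that of 7 pituitary hormone genes was at least 82771 in the pituitary and at most 387 elsewhere. The liver library labelled bull 3 went against its label. It held 1401 CPM of XIST, within the range of 681 to 2179 CPM in cow livers, and 0 reads of the Y-linked genes DDX3Y, USP9Y and ZFY. Its counts were closer to those of the liver of cow 4 than any other pair of libraries of 1 tissue was, with a chi-square per gene of 15.8 against 24.1 for the next pair. That lies far above sampling noise, so they were taken as separate libraries. Whether both livers came from 1 animal cannot be told from this value and was not tested. The library was kept under its label, so liver values of bull 3 and counts of animals that include liver rest on it. Without it 61 genes in place of 23 were called between the sexes in liver, and the sex results in liver and over the 4 tissues are given below with and without it.

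Levels are in CPM, the reads of a gene scaled to all reads in genes of the library, divided by the TMM factor of that library and written TMM-scaled CPM. The TMM factors ran from 0.518 in muscle to 1.71 in the pituitary, so a ratio between tissues can differ by more than 2-fold from the ratio of plain CPM. Levels of different genes are not compared, because no transcript lengths were used. In whole tissue, fewer cells of a type and less RNA per cell cannot be told apart.

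AK1, the main cytosolic adenylate kinase of muscle, was highest in muscle by a wide margin. Its level in muscle ran from 303 to 880 TMM-scaled CPM with a median of 596, and no library of another tissue reached that range. Fat (11.7 to 138, median 35.3) and pituitary (23.0 to 43.1, median 34.0) overlapped, with fat the higher in 5 of 10 animals. Liver lay below both without overlap, from 0.322 to 3.07 with a median of 1.65. The ratio of the muscle median to that of fat was 16.9, and 9.50 in plain CPM. The same 2 ranks, muscle first and liver last, held in both scales.

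AK3, which uses GTP to phosphorylate AMP in the mitochondrial matrix, was present at like levels in liver, muscle and fat. Its medians were 190.1 in liver, 183 in muscle and 174 in fat, and these neighbours overlapped, with 5 and 7 of 10 animals in the stated order. The pituitary had the lowest median, 77.8, with a range of 57.8 to 129 that overlapped that of fat, and AK3 was lower in the pituitary than in fat in 9 of 10 animals. In plain CPM the first 3 ranks changed to fat, liver and muscle, so their order depended on the scaling.

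AK4, a matrix paralogue of AK3 that responds to hypoxia through HIF-1, varied widely in liver. The medians were 16.3 in muscle, 9.82 in liver, 6.27 in fat and 3.55 in the pituitary, and every neighbouring pair overlapped. In plain CPM fat and liver exchanged places. The liver range was 3.46 to 125, against 10.6 to 37.4 in muscle, 3.31 to 14.5 in fat and 1.61 to 5.07 in the pituitary.

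AK5 and AK7 were low in most libraries. AK5 was highest in fat (1.33 to 26.3, median 4.84), followed by muscle (0.443 to 9.52, median 0.898) and pituitary (0.156 to 2.02, median 0.380). These ranges overlapped, but AK5 was higher in fat than in muscle in 10 of 10 animals. In liver AK5 had fewer than 3 reads in all 10 libraries and 0 reads in 5. AK7 was highest in the pituitary (5.66 to 17.6, median 9.35), with no overlap with fat (1.36 to 5.33, median 2.29). Liver (median 1.09) and muscle (median 0.237) followed, and 6 of the 10 muscle libraries had fewer than 3 reads of AK7.

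The 4 creatine kinases divided the tissues among them. CKM, the cytosolic enzyme of muscle, ran from 10000.2 to 20539 TMM-scaled CPM in muscle with a median of 14972.5. Outside muscle its median was 1.68 in fat, 1.58 in liver and 1.43 in the pituitary, which overlapped and changed order in plain CPM. CKB, the cytosolic enzyme first known from brain, was highest in fat (36.4 to 508, median 183) and higher there than in liver in 10 of 10 animals, although the ranges overlapped. Liver (median 20.5) and pituitary (median 19.99) were alike in TMM-scaled CPM, while in plain CPM the pituitary was higher in 10 of 10 animals. Muscle was lowest in CKB, from 2.32 to 8.41 with a median of 4.05, below every library of the other tissues.

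The mitochondrial creatine kinases were split between pituitary and muscle. CKMT1B, the ubiquitous form, ran from 52.0 to 113 in the pituitary with a median of 80.9, and reached at most 1.47 in fat, 0.895 in liver and 0.414 in muscle. It had 0 reads in 6 liver and 6 muscle libraries, so no ratio to those tissues is given. CKMT2, the sarcomeric form, ran from 1318 to 3766 in muscle with a median of 2064. Its medians elsewhere were 4.40 in the pituitary, 1.88 in liver and 0.615 in fat, with overlap between neighbours. The ratio of the muscle median to the pituitary median was 469, and 270 in plain CPM.

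**Figure D1:**
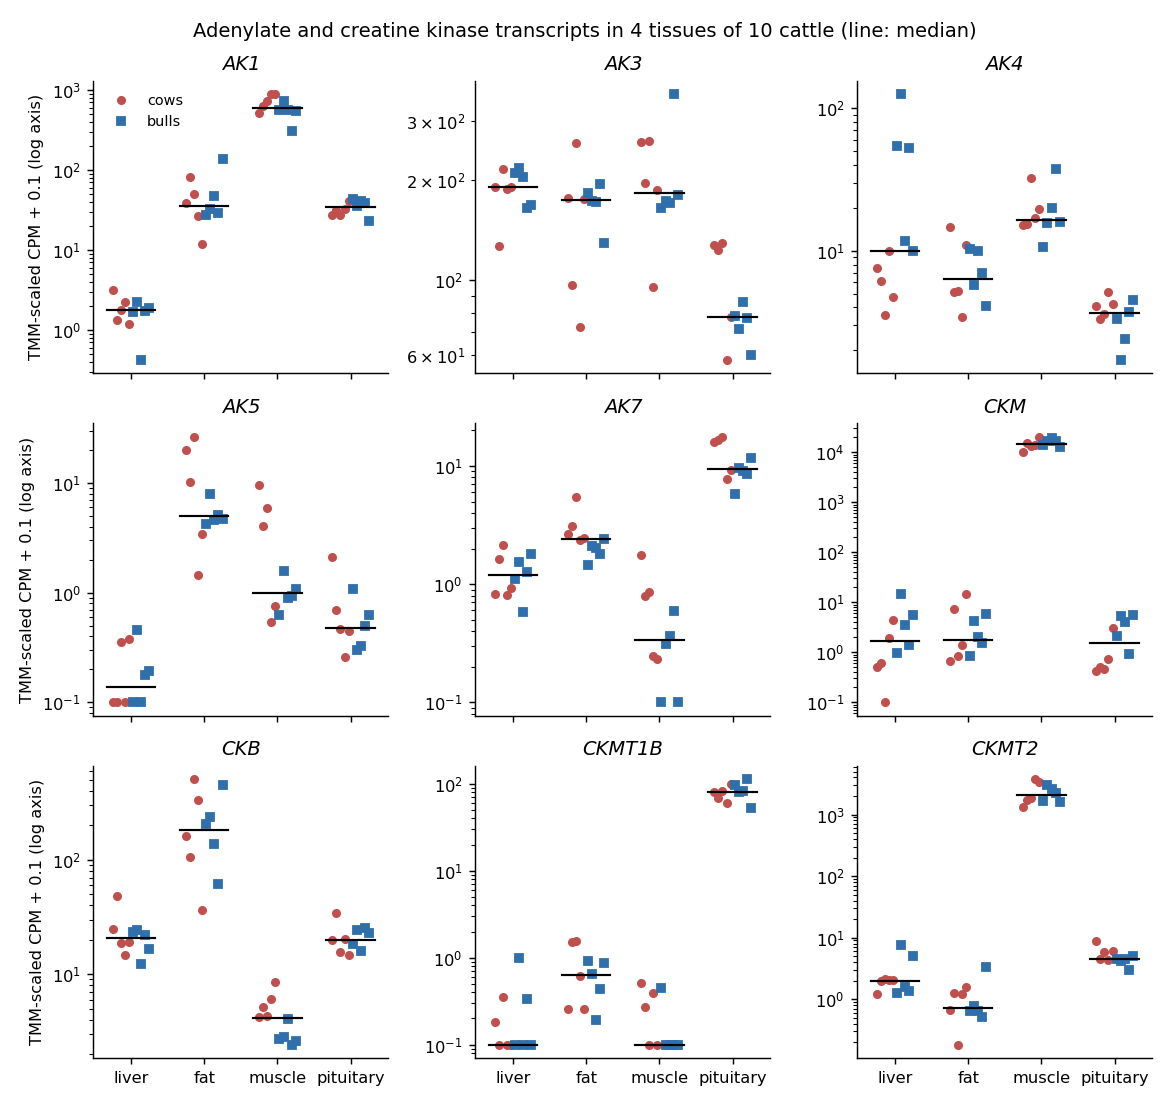
Each panel plots 1 gene, with the tissue on the x axis and TMM-scaled CPM + 0.1 on a log y axis; circles are cows, squares are bulls and the line is the median of 10 animals. CKM and CKMT2 stand apart in muscle, with medians of 14972.5 and 2064, CKMT1B stands apart in the pituitary with a median of 80.9, and AK3 covers like ranges in liver, fat and muscle.

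For each gene, the 3 genes with the most similar profile were found by the mean absolute difference over the 8 group means of log2(TMM-scaled CPM + 1), after centring, among 11576 genes with at least 1 CPM in a group. The muscle-specific structural genes MYBPC1, MYOT and TNNC2 were closest to CKM, the first with a difference of 0.15. MYOZ1, RYR1 and DUSP27 were closest to CKMT2, from 0.38. ENO2 was closest to CKMT1B at 0.065, followed by CELSR3 and SYP, and PSMA3 was closest to AK3 at 0.067, followed by PEX19 and KIAA1143. PRKAG3, the gamma subunit of AMPK known from glycolytic muscle, was closest to AK1 at 0.50, followed by DDIT4L and PFKFB4. AK4 had BAZ1A (0.28), RRS1 and PIK3R1, and AK5 had CBLN2 (0.13), MICAL1 and CACNA1A. AK7 had ABCA7 (0.18), C25H16orf93 and C25H16orf54, and CKB had GNAI1 (0.43), CDKN2B and SH3D21. For AK1, CKB, CKMT2 and AK4 the nearest genes were farther away than for the other members, at 0.28 or more.

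The other genes of the pathway were read from a list of 45 symbols, of which 39 were found. In muscle against the mean of the other 3 tissues, 14 of the 39 were higher and 15 lower at an adjusted p under 0.05 and at least 2-fold (edgeR quasi-likelihood test with the animal as a block). Of all genes tested, 18.1% were called higher and 21.1% lower in muscle by the same rule, and the median log2 difference was −0.14 over all genes and −0.35 over the list. The 3 largest gains were in enzymes acting on AMP and in a subunit of AMPK. The muscle AMP deaminase AMPD1 differed by 11.16 on the log2 scale, the cytosolic AMP nucleotidase NT5C1A by 9.75 and PRKAG3 by 6.02, with edgeR adjusted p-values of 5.34e-31, 1.29e-21 and 9.82e-23. In liver, 1 of the 3 tissues of that mean, all 3 genes were at or near the floor. NT5C1A averaged 0 TMM-scaled CPM in cow livers and in bull livers. AMPD1 averaged 0.154 in cow livers and 0.135 in bull livers, and PRKAG3 0.0945 and 0.0989. The sizes of these 3 differences are therefore uncertain. Of the AMPK subunits 4 of 6 were higher and 0 were lower, with a list median of 2.36, and of the mitochondrial adenine nucleotide carriers and pores 4 of 7 were higher and 2 lower.

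The 15 lower genes in muscle came from 5 of the 6 lists. Of the nucleoside diphosphate kinases 5 of 7 were lower and 0 higher, and of the remaining nucleoside monophosphate kinases 3 of 5 were lower and 0 higher. The lowest were GATM, which makes the precursor of creatine, at −3.33, NT5E, the AMP nucleotidase of the cell surface, at −3.07, and NME5 at −2.92 (edgeR adjusted p = 0.000643). Genes that are high in 1 of the 3 tissues of that mean count toward a lower value in muscle. NME5 was higher in the pituitary by 5.96 in the same kind of contrast. GATM averaged 2905 TMM-scaled CPM in cow livers and 2268 in bull livers. The creatine transporter SLC6A8 was higher in muscle by 3.89, the 1 called gain among 3 genes of creatine synthesis and transport. The AMP removal and purine nucleotide cycle list held 5 higher and 4 lower genes of 11, the lower ones including AMPD2, a second AMP deaminase, at −2.30.

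In the pituitary against the mean of the other 3 tissues, 6 of the 39 genes were higher and 12 lower, with a list median of −0.31 and a median of 0.02 over all genes. Of all genes tested, 22.8% were called higher and 19.5% lower in the pituitary. NME5, a nucleoside diphosphate kinase family member known from motile cilia, was higher by 5.96 and the adenine nucleotide carrier SLC25A31 by 4.49. The adenylate kinase AK8 was higher by 1.97 (edgeR adjusted p = 1.93e-09). NME5 averaged 0.146 TMM-scaled CPM in cow livers and 0.0836 in bull livers, near the floor. SLC25A31 averaged 0 in cow livers and in bull livers, so the size of its difference is uncertain. The lowest were the adenosine deaminase ADA at −4.98, AMPD1 at −3.95 and GATM at −3.17. All 3 genes of creatine synthesis and transport were lower in the pituitary. Muscle is 1 of the 3 tissues in that mean, so genes that are high in muscle count toward a lower value in the pituitary.

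Between the sexes, 1 of the 9 genes was called in liver, AK4, and 0 were called in fat, muscle and pituitary (edgeR likelihood ratio test, adjusted p under 0.05 over 13148 genes). The shares of all genes called were 0.175% (liver), 0.114% (fat), 0.517% (muscle) and 0.745% (pituitary), and nothing is read from the count in liver, because the call of AK4 was known. At an unadjusted p under 0.05 there were 2 of the 9 genes in liver, both higher in bulls, 0 in fat, 3 in muscle, all higher in cows, and 3 in the pituitary, of which 1 was higher in bulls and 2 in cows. The shares of all genes at that threshold were 7.45% (liver), 6.88% (fat), 11% (muscle) and 9.27% (pituitary). With the edgeR quasi-likelihood test 0 of the 9 were called in each tissue, and DESeq2 gave the counts of the likelihood ratio test. The median log2 fold change of the 9 genes, bulls to cows, was −0.42 in muscle, −0.39 in the pituitary, −0.11 in fat and 0.11 in liver. Without the liver library labelled bull 3, the liver count was again 1 called and 2 at an unadjusted p under 0.05, the median was 0.26 and 0.464% of all genes were called. Over all genes it was −0.06 in fat, −0.04 in muscle and about 0 in liver and pituitary.

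AK4 in liver was higher in bulls than in cows. In the livers of cows 1 to 5 AK4 stood at 7.51, 6.02, 3.46, 9.83 and 4.65 TMM-scaled CPM, from 27 to 93 reads. In the livers of bulls 1 to 5 it stood at 54.2, 125, 11.6, 52.1 and 9.82, from 72 to 699 reads. Bulls 1, 2 and 4 lay far above all cows, the library labelled bull 3 lay just above the highest cow, and bull 5 was level with cow 4, so the groups touched. The means were 6.29 ± 2.49 in cows and 50.6 ± 46.8 in bulls (SD, n = 5 each), a log2 fold change of 3.05 (SE 0.55). Without the library labelled bull 3 the mean in bulls was 60.3 ± 47.8 (SD, n = 4) and the log2 fold change 3.31, and without bull 2 it was 2.35.

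In the other tissues AK4 did not differ detectably between the sexes. The log2 fold change was −0.08 (SE 0.48) in fat, 0.01 (SE 0.37) in muscle and −0.39 (SE 0.32) in the pituitary. The bull with the highest liver value, bull 2, had the lowest AK4 of all animals in the pituitary, 1.61, and 5.65 in fat. Bull 4 was high in liver and also had the highest muscle value, 37.4. AK4 was 1 of the 9 genes called in the test of the sex by tissue interaction, against 0.335% of all genes, and 0.342% without the library labelled bull 3, where again 1 of the 9 was called. Since that test holds the liver contrast nothing further is read from it.

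**Figure D2:**
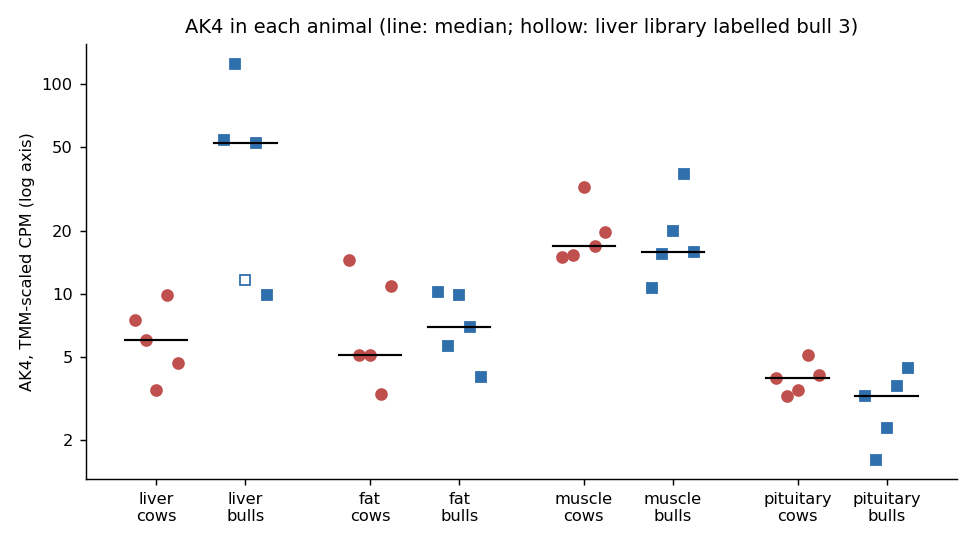
AK4 in TMM-scaled CPM on a log y axis is plotted for each animal by tissue and sex, with circles for cows, squares for bulls, a line at the median of 5 animals and a hollow square for the liver library labelled bull 3. Bulls 1, 2 and 4 stand between 52.1 and 125 in liver, while cows and bulls cover like ranges in fat, muscle and pituitary.

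AK4 is a known target of HIF-1, so a list of 18 other HIF-1 targets was read beside it, of which 16 were found. In liver 0 of the 16 were called, against 0.175% of all genes, and the median log2 fold change was 0.09. At an unadjusted p under 0.05 there was 1 gene in each direction, against 7.45% of all genes. These were P4HA1, a collagen prolyl hydroxylase, at 1.11 (SE 0.33, edgeR adjusted p = 0.153) and ANKRD37 at −1.64 (edgeR adjusted p = 0.525). Without the library labelled bull 3, 1 of the 16 was called, P4HA1 at 1.24 (edgeR adjusted p = 0.0443), against 0.464% of all genes. The list median was then 0.04. This list was counted with the likelihood ratio test alone. In fat and in muscle 1 of the 16 was called, against 0.114% and 0.517% of all genes. The list medians were 0.11 and −0.32, against −0.06 and −0.04 over all genes. In both tissues the called gene was ADM, which encodes the vasodilator adrenomedullin and was higher in cows. It differed by −1.53 in fat (SE 0.37, edgeR adjusted p = 0.0467) and −2.11 in muscle (SE 0.38, edgeR adjusted p = 0.000158). AK4 differed there by −0.08 and 0.01. In the pituitary 0 of the 16 were called, against 0.745% of all genes, with a list median of 0.17. Over the 4 tissues 2 of the 16 were called, P4HA1 at 0.58 and ADM at −0.97, against 1.69% of all genes. Without the liver library labelled bull 3 it was again 2, against 1.34%. The study had itself reported ADM for sex over the 4 tissues from these libraries.

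The level of CKB in muscle separated the sexes. It was 4.14, 5.10, 4.19, 5.91 and 8.41 TMM-scaled CPM in cows 1 to 5 and 2.61, 2.73, 3.97, 2.32 and 2.49 in bulls 1 to 5. The lowest cow lay above the highest bull, and the sexes did not overlap for 1.65% of the 13148 genes in muscle. The log2 fold change was −0.98 (SE 0.36), which did not pass the adjustment over all genes (edgeR adjusted p = 0.210). These levels rest on 14 to 64 reads. Summed levels of 4 fat markers, of which 0 were absent, ran from 26.4 to 663 in cow muscle and from 68.9 to 239.5 in bull muscle. Those of 4 macrophage markers ran from 208 to 353 in cow muscle and from 56.1 to 236 in bull muscle. The log2 fold changes of these macrophage markers ran from −1.40 (CD14, SE 0.34, edgeR adjusted p = 0.0233) to −0.65 (CD163). Sums of smooth muscle markers and of neuron and glia markers had higher medians in bull muscle. The part of all these markers in the difference was not tested.

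CKM and CKMT2 in muscle did not differ detectably between the sexes. CKM averaged 14726 ± 3867 in cows and 15923 ± 2579 in bulls (SD, n = 5 each), a log2 fold change of 0.13 (SE 0.30), and CKMT2 averaged 2413 ± 1093 and 2234 ± 609, a log2 fold change of −0.09 (SE 0.35). AK1 averaged 725 ± 158 in cows and 537 ± 149 in bulls, a log2 fold change of −0.42 (SE 0.29, edgeR adjusted p = 0.634). Of the fibre markers 1 of 7 fast and 2 of 6 slow ones were called. The fast markers ran from −5.20 to 0.64 with a median of −0.55, MYH2 being the highest, and the slow ones from 0.69 to 1.86 with a median of 1.23. The called ones were MYH1, MYL2 and TNNC1. MYH1, the myosin heavy chain of fast glycolytic fibres, was −5.20 (SE 0.40, edgeR adjusted p = 8.27e-24), while MYL2 and TNNC1 of slow fibres were 1.86 (SE 0.40, edgeR adjusted p = 0.00345) and 1.81 (SE 0.43, edgeR adjusted p = 0.0224).

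The ratio of mitochondrial to cytosolic creatine kinase within a library does not depend on scaling between libraries. The log2 ratio of CKMT2 to CKM reads in muscle was −2.69 ± 0.48 in cows and −2.86 ± 0.22 in bulls (SD, n = 5 each), a difference of −0.17 with p = 0.563 in a two-sided exact permutation test. The log2 ratio of CKMT1B to CKB reads in the pituitary was 1.95 ± 0.69 in cows and 1.97 ± 0.51 in bulls, a difference of 0.026 with p = 0.976 in the same exact test. Both p-values were 0.976 after Benjamini-Hochberg adjustment over the 2 ratios, and the smallest p this design allows is 0.00794. The spread between animals of 1 sex was wider than either difference.

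Among the other genes of the pathway, sex calls were few. In muscle 1 of 39 was called, PRKAG3, with 197 ± 75.4 TMM-scaled CPM in cows and 73.5 ± 21.5 in bulls (SD, n = 5 each), a log2 fold change of −1.42 (SE 0.35, edgeR adjusted p = 0.0233) and no overlap between the sexes. The call was lost with the quasi-likelihood test (adjusted p = 0.244) and when any 1 animal other than cow 4 or cow 5 was left out, with adjusted p-values of 0.0552 to 0.131. AMPD1 in muscle averaged 771 ± 163 in cows and 378 ± 145 in bulls without overlap, a log2 fold change of −1.02 that did not pass the threshold (SE 0.33, edgeR adjusted p = 0.145). In liver, fat and pituitary 0 of 39 were called, and without the library labelled bull 3 the liver count was also 0. At an unadjusted p under 0.05 there were 2 in liver, 1 in fat, 6 in muscle (5 of them higher in cows) and 2 in the pituitary, out of 39, against the shares of all genes given above. MYH1, MYL2 and TNNC1 differed between the same muscle libraries, and their part in these differences was not tested.

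Over the 4 tissues together, with sex and tissue as terms, 0 of the 9 kinases were called against 1.69% of all genes. At an unadjusted p under 0.05 there were 2, both higher in cows, against 16.7% of all genes. They were AK5, with a log2 fold change of −1.17 (SE 0.39, edgeR adjusted p = 0.0923), and AK7, with −0.62 (SE 0.21, edgeR adjusted p = 0.0854). In the same fit AMPD1 was called among the 39 other pathway genes, at −1.10 (SE 0.24, edgeR adjusted p = 0.00195). Its call was lost when the animal was a block in voom (adjusted p = 0.0797). The study had itself reported AMPD1 for sex over the 4 tissues from these libraries, so nothing further is read from the call. Without the liver library labelled bull 3, 0 of the 9 and 1.34% of all genes were called, AK5 and AK7 had adjusted p-values of 0.110 and 0.114, and AMPD1 had 0.00146 (edgeR). This fit treats the 4 libraries of an animal as independent.

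**Figure D3:**
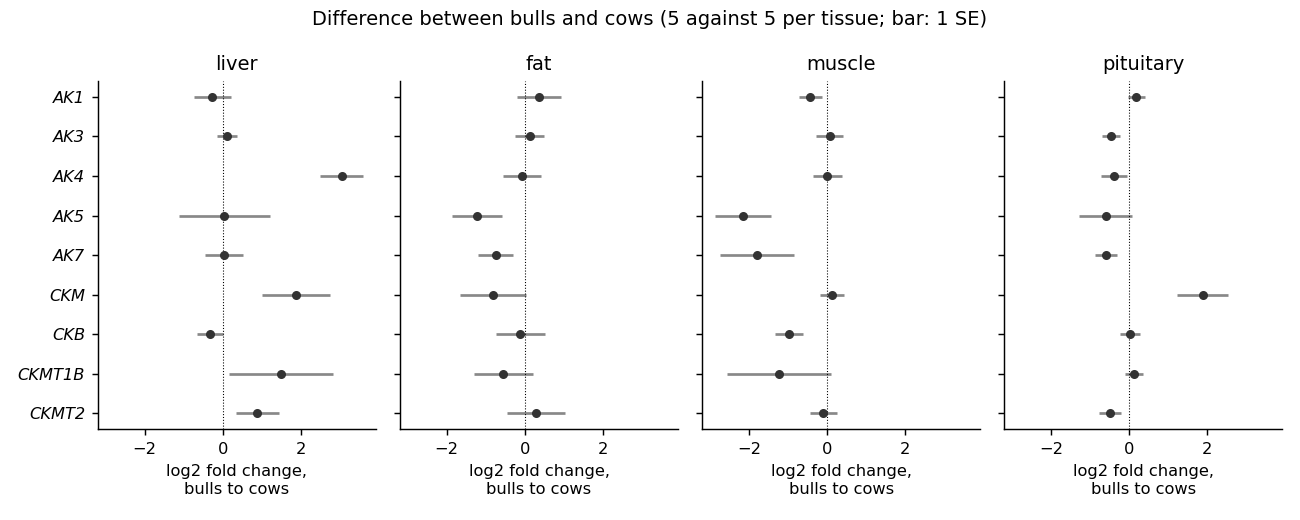
The x axis is the log2 fold change from cows to bulls (positive is higher in bulls) with a bar of 1 SE, the y axis lists the 9 genes, and each panel is 1 tissue with 5 animals of each sex. AK4 in liver stands at 3.05, CKM at 1.88 in both liver and pituitary, and AK5 and AK7 lie below 0 in fat, muscle and pituitary.

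The high values of AK5 and AK7 in cows came from cows 1, 2 and 3. AK5 in muscle was 9.52, 3.98 and 5.84 TMM-scaled CPM in cows 1 to 3, and 0.443 and 0.657 in cows 4 and 5. In bulls 1 to 5 it was 0.521, 1.47, 0.793, 0.828 and 0.967, so cows 4 and 5 lay at the level of the bulls. The log2 fold change was −2.15 (SE 0.72, edgeR adjusted p = 0.163). It passed the threshold when cow 4 or cow 5 was left out, with adjusted p-values of 0.00845 and 0.0384. In fat AK5 showed the same animals on top, with 19.7, 10.1 and 26.3 in cows 1 to 3, 1.33 and 3.31 in cows 4 and 5, and 4.16 to 7.81 in bulls.

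AK7 in muscle was 1.66, 0.692 and 0.762 in cows 1 to 3 and 0.148 and 0.131 in cows 4 and 5, against 0, 0.210, 0.264, 0.497 and 0 in bulls 1 to 5. These are 0 to 12 reads, and the log2 fold change was −1.78 (SE 0.94, edgeR adjusted p = 0.432). In the pituitary AK7 was 16.0, 16.4 and 17.6 in cows 1 to 3 and 7.72 and 9.23 in cows 4 and 5, against 5.66, 9.48, 9.01, 8.46 and 11.5 in bulls 1 to 5. Cows 1 to 3 stood above every other animal, and the log2 fold change between the sexes was −0.59 (SE 0.28, edgeR adjusted p = 0.482).

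Markers of motile cilia, the structures in which AK7 is known to act, were read beside it in the pituitary. The summed level of 7 cilia markers was 99.2, 103 and 106 TMM-scaled CPM in cows 1 to 3, 43.0 and 46.1 in cows 4 and 5, and 53.6, 74.5, 55.9, 45.4 and 79.4 in bulls 1 to 5. The 3 animals highest in AK7 were thus the 3 highest in cilia markers. Between the sexes 1 of the 7 markers was higher in bulls, with a median log2 fold change of −0.30 and 0 called. That marker was FOXJ1, the transcription factor of motile cilia, with means of 1.29 in cows and 3.54 in bulls. Its log2 fold change was 1.45 (SE 0.46, edgeR adjusted p = 0.115). The lowest was CCDC39 at −0.92 (SE 0.33, edgeR adjusted p = 0.206). In the other tissues the sum reached at most 7.48. None of the 7 markers was absent from the pituitary, and their part in the level of AK7 was not tested.

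AK3 in the pituitary followed the same animals, with 128, 124 and 129 in cows 1 to 3, 57.8 and 77.4 in cows 4 and 5, and 78.2, 71.5, 86.1, 76.9 and 59.8 in bulls 1 to 5. The log2 fold change was −0.46 (SE 0.23, edgeR adjusted p = 0.528). In muscle, AK3 was 260, 196 and 261 in cows 1 to 3, and bull 4 was highest with 360, so the cows did not stand apart there.

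The libraries of cows 1 to 3 also had more uniquely aligned reads outside annotated genes, which the counting left out. The share was 39.4 to 54.0% in their 12 libraries and 33.2 to 46.9% in the 28 libraries of the remaining animals. With this share as a covariate, a fit chosen after seeing the data, the log2 fold change became −0.92 for AK5 in muscle, −0.97 for AK7 in muscle, −0.19 for AK7 in the pituitary and −0.25 for AK3 in the pituitary. That of CKB in muscle was −1.11 and that of AK4 in liver was 2.87 in the same fit. Cows 1 to 3 are all female, but the share did not follow sex in every animal. It was 36.6 and 37.95% in the muscle of cows 4 and 5. In the pituitary it was 46.9% in bull 5 and 46.7% in cow 2. The part of the share in these levels was not tested beyond this fit.

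**Figure D4:**
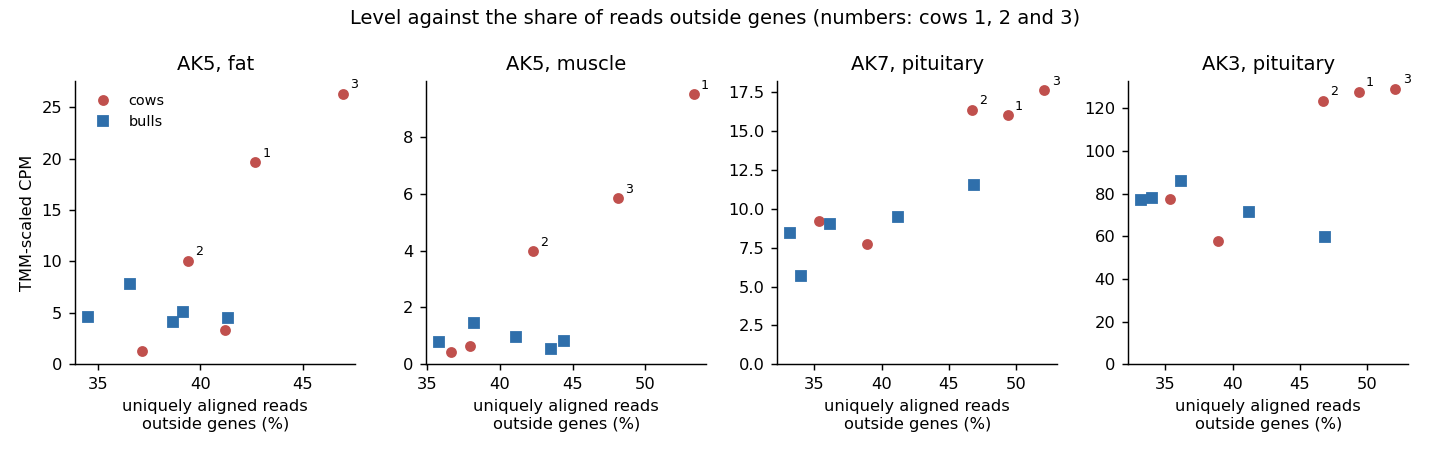
Each panel plots the TMM-scaled CPM of 1 gene in 1 tissue against the share of aligned reads outside genes in percent, with circles for cows, squares for bulls and numbers at cows 1, 2 and 3. Those 3 cows hold the highest levels of AK5 in fat and muscle and of AK7 and AK3 in the pituitary, up to 26.3, 9.52, 17.6 and 129, and shares of bulls reach 41.4% in fat, 44.4% in muscle and 46.9% in the pituitary.

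CKM outside muscle was low and followed muscle markers. In the livers of cows 1 to 5 CKM stood at 0.404, 0.510, 0, 1.83 and 4.24 TMM-scaled CPM, and in those of bulls 1 to 5 at 0.858, 14.7, 3.38, 1.33 and 5.38. The log2 fold change was 1.88 (SE 0.86, edgeR adjusted p = 0.602), 0.95 without bull 2 and 2.01 without the library labelled bull 3 (adjusted p = 0.657). In the pituitary the values were 0.316, 0.412, 0.362, 0.624 and 2.94 in cows and 2.02, 5.14, 3.89, 0.837 and 5.41 in bulls. The log2 fold change was again 1.88 (SE 0.65, edgeR adjusted p = 0.191), and 2.997 without cow 5 (adjusted p = 0.000252), the only cow within the range of the bulls.

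The sum of 4 muscle markers (ACTA1, TNNT3, MYL1 and MYBPC1) moved alongside. It ran from 3.53 to 18.5 TMM-scaled CPM in the pituitaries of cows and from 9.03 to 41.0 in those of bulls, and from 5.73 to 30.8 in cow livers and 9.30 to 127 in bull livers. Bull 2 had both the highest CKM and the highest marker sum in liver. CKM was 10.7 to 20.6% of the marker sum in muscle, 8.06 to 19.8% in the pituitary, 3.29 to 15.2% in fat and 0 to 15.5% in liver. CKM in liver and pituitary was at most 0.0958% of its mean level in muscle, and the marker sum was at most 0.119% of its own. Of the fibre markers 1 of 7 fast and 2 of 6 slow ones were called in the pituitary, all higher in bulls. The fast one was MYH2 at 2.34 (SE 0.54, edgeR adjusted p = 0.0101). The slow ones were MYH7 at 1.18 (SE 0.28, edgeR adjusted p = 0.00837) and MYL2 at 3.11 (SE 0.79, edgeR adjusted p = 0.0277). The fast markers ran from −0.17 (MYH1) to 2.34 with TNNI2 absent, and the slow ones from −0.16 to 3.32. The source of these reads was not tested.

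Taken as a share of their own level in muscle, CKMT2 in the pituitary and AK1 in the pituitary and fat stood above the muscle markers. In the pituitary CKMT2 was 0.1252 to 0.369% of its mean level in muscle, and AK1 was 3.64 to 6.83%, while the marker sum was 0.00331 to 0.0384%. In liver CKMT2 was highest in bulls 2 and 5, with 7.52 and 4.91 TMM-scaled CPM against 1.13 to 2.05 in the remaining 8 libraries. These are the 2 livers highest in CKM and in the marker sum. In fat AK1 was 1.86 to 21.9% of its muscle level, against 0.00997 to 0.0913% for the marker sum.

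**Figure D5:**
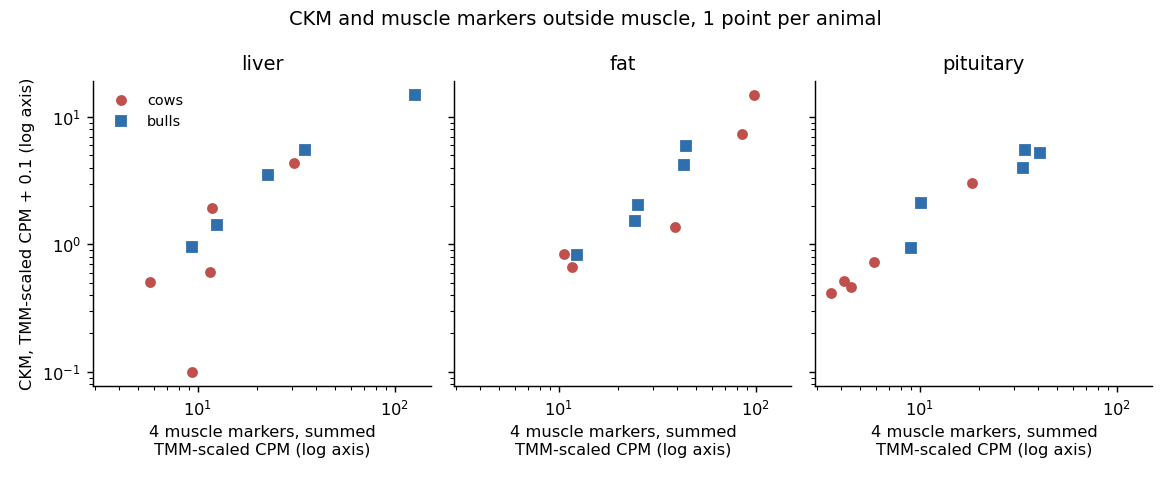
For liver, fat and pituitary, CKM (TMM-scaled CPM + 0.1, log y axis) is plotted against the summed TMM-scaled CPM of 4 muscle markers (log x axis), with 1 point per animal, circles for cows and squares for bulls. The points broadly rise together in each tissue. CKM was 14.7 at a marker sum of 127 in the liver of bull 2. It was 14.8 at a sum of 97.6 in the fat of cow 5, and 5.41 at a sum of 34.2 in the pituitary of bull 5.

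CKMT1B in the pituitary and CKB in fat did not differ between cows and bulls beyond the spread of 5 animals. CKMT1B in the pituitary averaged 77.9 ± 14.9 in cows and 84.5 ± 22.5 in bulls (SD, n = 5 each), a log2 fold change of 0.12 (SE 0.22). CKB in fat averaged 229 ± 191 and 218 ± 147, a log2 fold change of −0.11 (SE 0.63). Its range within 1 sex was wide, from 36.4 in cow 5 to 508 in cow 3 and from 60.8 in bull 4 to 452 in bull 5.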

How the data were processed

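For each library the authors deposited raw read counts per gene symbol. Per the study's methods, reads were trimmed with Trimmomatic, aligned to the bosTau7 genome with TopHat2 and Bowtie2, and uniquely aligned reads were counted with HTSeq. The strand setting is not given in the sources used here. The 9 genes, the gene lists and the comparisons were chosen with earlier results of these data known. The row with no gene symbol, 0.1136 to 2.7647% of reads, was left out. Counts were TMM-scaled and fitted in edgeR 4.0.16 (R 4.3.3) as negative binomial models by likelihood ratio test, with sex as the term within a tissue and sex and tissue over all 40 libraries, as in the study. A sex by tissue interaction, not part of the study's models, was fitted in addition. Tissue contrasts used the quasi-likelihood test with the animal as a block. Adjustment was by Benjamini-Hochberg over 13148 genes at 0.05, with a prior count of 0.125. Ratios took a pseudocount of 0.5 reads and scipy 1.17.1. Alternatives were DESeq2 1.42.0, voom in limma 3.58.1, RLE factors, filterByExpr and leaving out each animal. The scripts were tested on simulated data.

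Every member is named. Sample values are given for AK4 in liver and for members with an unadjusted p under 0.05 for sex in a tissue. Pathway genes are named when called for sex or among the 3 largest called differences in each direction. Markers and HIF-1 targets are named where they stand beside a result. AK5 in fat, AK3 in muscle, NME4, GATM, SLC25A6 and the values of AMPD1 in muscle and of CKMT2 were chosen outside this rule, after their values were seen. AK6, AK9, CMPK2, SLC16A12, AMPD3 and PRKAG2 were not analysed here. In the RefSeq gene table CKMT1B is an older name of a single gene with CKMT1A, and AK3L1 is an older name of both AK3 and AK4, so reads of such near copies may have been split or dropped by unique alignment. Reads of overlapping antisense genes cannot be told apart without strand. Sequencing depth ran from 5173092 to 19165864 reads, and fewer than 3 reads were taken as the limit of detection, for counting error only.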

Additional observations from a re-analysis of the deposited data

Results flagged for a closer look

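Of 57 groups of 5 libraries with the members' values, 9 had 1 library set apart by Dixon's criterion (gap over range above 0.71). For normally distributed values chance flags about 1 in 20 groups. These values were not logged, so that rate may not hold here. In fat these were AK1 in bull 5 at 138 TMM-scaled CPM (27.1 to 46.4 in the other bulls), CKMT2 in the same library at 3.25 (0.421 to 0.664), AK5 in bull 2 at 7.81 (4.16 to 5.05) and AK7 in cow 3 at 5.33 (2.26 to 2.99). In muscle these were AK3 in bull 4 at 360 (164 to 179), AK4 in cow 3 at 32.4 (15.0 to 19.6) and CKB in bull 3 at 3.97 (2.32 to 2.73). The last were CKB in the pituitary of cow 2 at 34.5 (14.7 to 20.4) and CKMT2 in the liver of cow 1 at 1.13 (1.84 to 2.05).

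AK4 was set apart by its log2 fold change from cows to bulls of 3.05 in liver, against values between −0.39 and 0.01 in the other tissues. This difference was among the results known when the genes were chosen, so the interaction test that flagged it restates it and nothing is read from that test. With the edgeR quasi-likelihood test 0 members were called for the interaction.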

How the results depend on the processing

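Of 334 alternative values for 26 results, 305 were labelled the same as the main value. For a count of called genes this meant an equal or close count, 0 against 0 included. For a fold change or ratio it meant the same direction and the same side of the threshold. With the quasi-likelihood test the members called for sex in liver fell from 1 to 0, the pathway genes called in muscle from 1 to 0 and the members called for the interaction from 1 to 0. With voom and the animal as a block the pathway genes called over the 4 tissues fell from 1 to 0. With the share of reads outside genes as a covariate, chosen after seeing the data, the pathway genes called in fat rose from 0 to 1, AMPD1. The causes were not tested.

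Leaving out 1 animal at a time gave 0 to 1 members called in muscle (AK5, without cow 4 or cow 5) and 0 to 1 in the pituitary (CKM, without cow 5). It gave 0 to 1 pathway genes called in liver (NME4, without cow 4), 0 to 3 in muscle (PRKAG3, AMPD1 and GATM without cow 4) and 0 to 1 in the pituitary (SLC25A6, without cow 5). The sex difference in the log2 ratio of CKMT2 to CKM ran from −0.30 to 0.020, and changed sign without cow 4. That of CKMT1B to CKB ran from −0.21 to 0.23, and changed sign without cow 2 (−0.21), cow 4 (−0.074), bull 1 (−0.079), bull 3 (−0.073) and bull 4 (−0.025).

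Without the replicate block on the animal the tissue contrasts called the same 14 higher and 15 lower pathway genes in muscle and the same 6 higher and 12 lower in the pituitary. Division by length was not run, because the gene table holds gene spans and not transcript lengths. Depth limits AK5 in liver, AK7 in muscle and CKMT1B outside the pituitary, which rest on few reads.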
